A study of Bos taurus with 6 samples.

Results

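The 9 genes described here make, release or burn stored fat: DGAT2, GPAM, LPIN1, ACSL1, ABHD5, THRSP, AQP7, ACSM1 and PDK4. They were chosen by name, with earlier results of these data known. Every probe set whose only gene symbol in the platform annotation was one of these names was taken. This gave 11 probe sets of the 24016 that were not controls, or 9 of the 9155 named genes. PDK4 had 3 probe sets and each of the other 8 genes had 1. The PDK4 probe set that was brightest on average over the arrays stands for the gene, and the others are given beside it.

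The arrays measured bovine bone marrow mesenchymal stem cells (MSCs, the marrow cells that can form cartilage, bone and fat) held in agarose, a hydrogel, in chemically defined medium. Of the 6 conditions, 3 held transforming growth factor beta 3 (TGF-beta3), a growth factor used to turn MSCs towards cartilage: day 42 with dynamic compressive loading, which ran for 21 days after 21 unloaded days, and days 42 and 21 with no loading. The other 3 had no TGF-beta3 and no loading, and were taken at days 42, 21 and 3. Each condition had 1 array, and the labels name no strain, age, donor or pooling, so a difference between 2 arrays has no replicate error.

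Triglyceride is built on a glycerol backbone. Fatty acids are first coupled to coenzyme A, then 2 of them are added to glycerol phosphate, the phosphate is removed, and a last fatty acid closes the molecule, which is kept in lipid droplets. Droplet triglyceride is cut back to fatty acids and glycerol when fuel is needed, and cells that burn fatty acids hold back the complex in mitochondria that turns pyruvate into acetyl-CoA. The pathway is best known from fat cells and liver, and MSCs can take it up when they turn into fat cells.

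All values are linear signals as the authors deposited them. Signals under a floor of 15.1, the 40th percentile of all values, were set to it before folds and log2 differences were computed. Where 1 of a pair of arrays was under the floor, the fold is a lower bound and is written "at least". Signals of different probe sets cannot be set against each other, so only the arrays are compared. The arrays' median signals lay between 22.3 and 34.9, and between 54.9% and 65.3% of probe sets were above the floor. Control transcripts are spiked into each hybridisation. Their median signal at day 42 with TGF-beta3 was 4444 loaded and 6067 unloaded, and it lay between 2139 and 2981 on the other 4 arrays. The spikes of the day 42 pair thus differed by log2 1.44 with TGF-beta3 over none, in the direction opposite to the differences of the 9 genes. A measure of RNA and labelling quality, the signal of a control transcript at its 3 prime end over that at its 5 prime end, ran over the arrays as follows: GAPDH had 1.51 to 2.27, eIF4E 5.08 to 9.1, and cyclophilin 4.86 to 7.52. GAPDH and eIF4E were highest on the day 42 array without TGF-beta3 and cyclophilin on the loaded array, and their part in the results was not tested.

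Among cultures of 21 and 42 days, the 9 genes were low with TGF-beta3 and high without it. Each of the 9 was at least 2-fold lower with TGF-beta3 on both days, where 14% of 6938 genes were that much lower at day 21 and 15.7% of 7566 at day 42. None was at least 2-fold higher, against 14.3% of genes at day 21 and 25.5% at day 42. As the 9 were chosen with earlier results of these data known, these shares and those below describe them and are no test. The median log2 difference of the 9 genes was -5.74 at day 21 and -6.28 at day 42, with bounds counted at their bound, against 0.09 and 0.22 over all genes compared. Only GPAM, ACSL1 and ABHD5 were above the floor on both arrays at day 21, so the other 6 differences of that day are bounds, as are 4 of the 9 at day 42.

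The 2 days together gave 2 arrays on each side, which were fitted with limma and a term for day. In this fit 9 of the 9 genes fell with TGF-beta3 and none rose, at an adjusted p under 0.05 over all 14839 probe sets tested, while 7.7% of 6835 genes fell and 7.11% rose. The median log2 difference was -5.99 for the 9 genes and 0.13 for all genes tested. DGAT2, THRSP and AQP7 passed the filter on low signal only through the arrays without TGF-beta3, and 4 further genes had 1 array with TGF-beta3 under the floor, so the mean differences of all of these are bounds. GPAM and ACSL1 were above the floor on all 4 arrays. The fit leaves 1 residual degree of freedom, so its p-values rest on the spread pooled over probe sets and not on independent cultures. With no filter on low signal none of the 9 passed (adjusted p from 0.52 to 0.54 by limma), while all 9 had an unadjusted p under 0.05 there. In that fit 0 of all 24016 probe sets passed, and 2113 had an unadjusted p under 0.05. In bulk RNA, fewer cells of a type and less RNA per cell cannot be told apart.

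**Figure D1:**
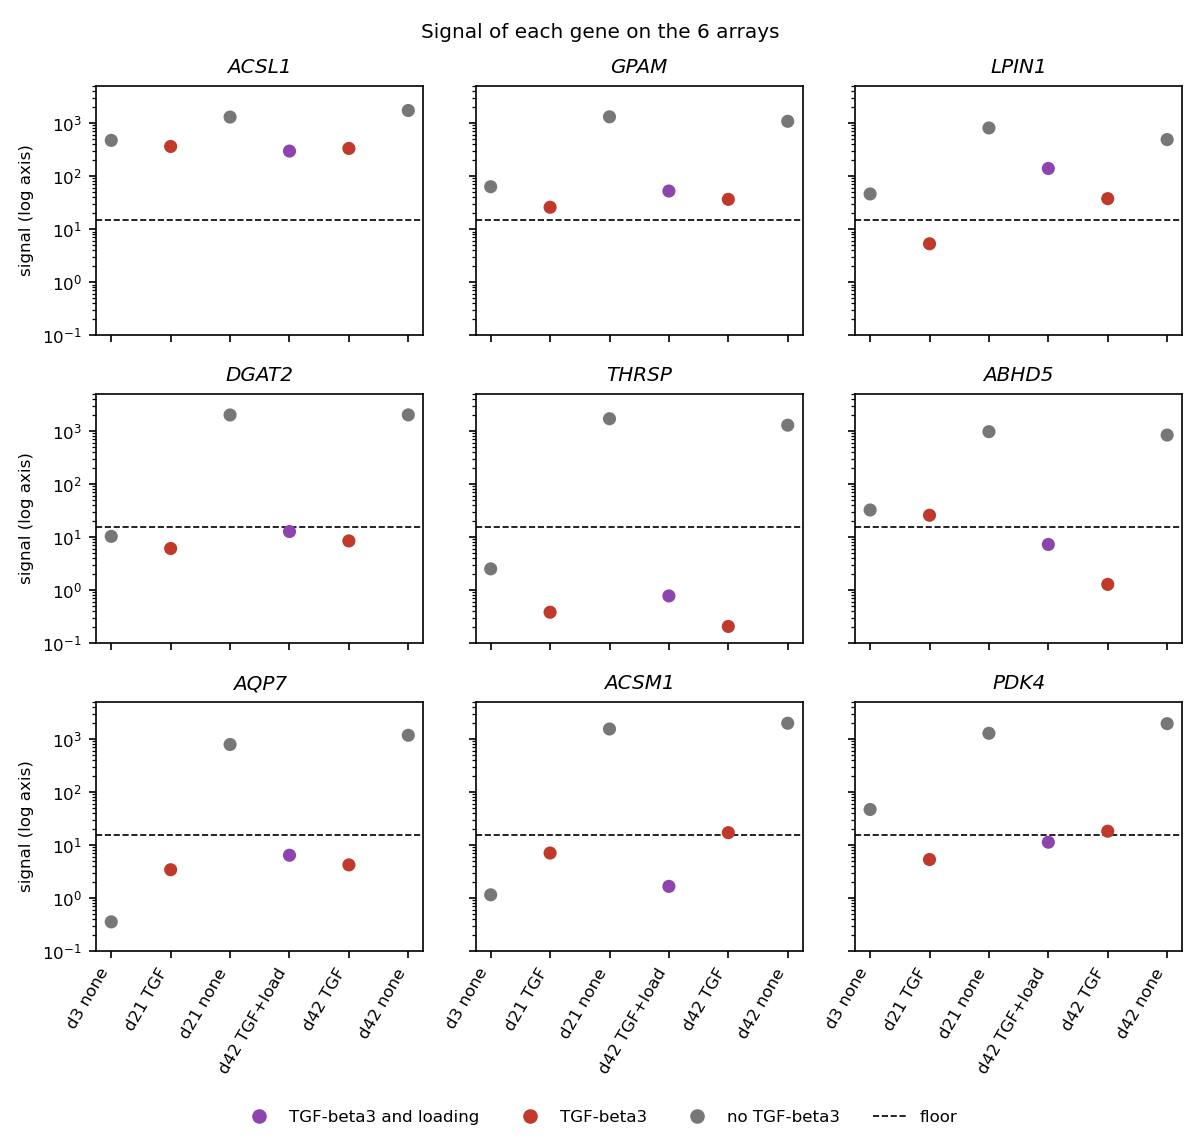
Signal of each of the 9 genes (log axis, no units) on the 6 arrays, 1 point per array, with the floor of 15.1 dashed. In all 9 panels the 2 highest points are days 21 and 42 without TGF-beta3. The day 3 array, also without it, is in no panel among them. Of 8020 genes above the floor on any array, 867 had the same 2 arrays above the other 4, with the floor applied.

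The enzymes of the pathway are taken in the order in which they act. ACSL1 couples long-chain fatty acids to coenzyme A, which readies them for storage or burning. Its signal was 362 at day 21 and 332 at day 42 with TGF-beta3 and 296 on the loaded array, against 471, 1297 and 1726 at days 3, 21 and 42 without it. ACSL1 was thus well above the floor on every array, and the 3 arrays with TGF-beta3 lay below the 3 without. It was 3.59-fold lower with TGF-beta3 at day 21 and 5.2-fold lower at day 42, and it fell by a mean log2 of 2.11 with a standard error of 0.34 (adjusted p = 6.7e-06 by limma), the smallest fall among the 9.

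GPAM, the mitochondrial glycerol phosphate acyltransferase, adds the first fatty acid to the backbone. Signals of GPAM were 25.8 and 36.4 at days 21 and 42 with TGF-beta3 and 52.2 with loading, against 63, 1311 and 1079 at days 3, 21 and 42 without. The later arrays without TGF-beta3 stood far above the other 4, which all lay between 25.8 and 63. GPAM was 50.8-fold lower with TGF-beta3 at day 21 and 29.7-fold lower at day 42, with no bound involved. Its mean log2 difference was -5.28 ± 0.47 (SE, adjusted p = 7.1e-13 by limma).

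LPIN1, or lipin 1, removes the phosphate from phosphatidic acid to leave diacylglycerol, and can also act in the nucleus on genes of fatty acid burning. It had signals of 5.29 and 37.5 at days 21 and 42 with TGF-beta3 and 139 on the loaded array, against 46, 808 and 488 at days 3, 21 and 42 without. The 3 arrays with TGF-beta3 lay apart from each other for LPIN1, with day 21 under the floor and the loaded array above day 3 without TGF-beta3. The difference with TGF-beta3 was at least 53.4-fold lower at day 21 and 13-fold lower at day 42, with a mean log2 of -4.72 ± 0.58 (SE, adjusted p = 1.2e-08 by limma).

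DGAT2 adds the last fatty acid and so commits diacylglycerol to triglyceride. With TGF-beta3 it had signals of 6.08 and 8.45 at days 21 and 42 and 12.7 with loading, against 10.3, 2009 and 2017 at days 3, 21 and 42 without. DGAT2 was above the floor only on the 2 later arrays without TGF-beta3, which differed from each other by log2 0.01. The fold was at least 133 lower with TGF-beta3 on each day, and the mean log2 difference, a bound, was -7.05 ± 0.48 (SE, adjusted p = 7.9e-17 by limma).

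THRSP, also called Spot 14, is a small protein that goes with the making of fatty acids in liver, fat and mammary gland of rodents. The signals of THRSP were 0.382 and 0.206 at days 21 and 42 with TGF-beta3 and 0.775 with loading, against 2.51, 1705 and 1288 at days 3, 21 and 42 without. Like DGAT2, THRSP was above the floor only without TGF-beta3 at days 21 and 42. The bound was at least 113-fold lower with TGF-beta3 on the earlier day and at least 85-fold on the later (mean log2 -6.61 ± 0.51, SE, adjusted p = 7.6e-15 by limma).

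A further pair of genes acts when stored fat is released. ABHD5, or CGI-58, activates adipose triglyceride lipase at the droplet surface. It had signals of 25.8 and 1.28 at days 21 and 42 with TGF-beta3 and 7.25 with loading, against 32.4, 972 and 839 at days 3, 21 and 42 without. At day 21 with TGF-beta3 ABHD5 was still above the floor and near its day 3 signal, while both day 42 arrays with TGF-beta3 were under the floor. With TGF-beta3 ABHD5 was 37.6-fold lower at day 21, and by day 42 the bound was at least 55.4-fold, with a mean log2 difference of -5.51 ± 0.54 (SE, adjusted p = 1.7e-11 by limma).

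AQP7 is the channel through which glycerol leaves fat cells. Its signals were 3.42 and 4.22 at days 21 and 42 with TGF-beta3 and 6.41 with loading, against 0.355, 787 and 1175 at days 3, 21 and 42 without. AQP7 was under the floor on the 4 arrays other than days 21 and 42 without TGF-beta3. With TGF-beta3 the gene was lower at day 21 by at least 52-fold and at day 42 by at least 77.6-fold (mean log2 -5.99 ± 0.57, SE, adjusted p = 5.7e-12 by limma).

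The last 2 genes bear on the choice of fuel. ACSM1 couples medium-chain fatty acids to coenzyme A in mitochondria. Its signals were 7.06 and 17.1 at days 21 and 42 with TGF-beta3 and 1.66 with loading, against 1.15, 1543 and 1981 at days 3, 21 and 42 without. Of the 4 low arrays, the unloaded day 42 array with TGF-beta3 was just above the floor and the other 3 were under it. ACSM1 was at least 102-fold lower with TGF-beta3 at day 21 and 116-fold lower at day 42, with a mean log2 difference of -6.76 ± 0.49 (SE, adjusted p = 7.2e-16 by limma).

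PDK4 is the kinase that switches off this pyruvate dehydrogenase complex when fatty acids are burnt. Its brightest probe set had signals of 5.33 and 18.2 at days 21 and 42 with TGF-beta3 and 11.3 with loading, against 46.8, 1280 and 1948 at days 3, 21 and 42 without. It was at least 84.5-fold lower with TGF-beta3 at day 21 and 107-fold lower at day 42, with a mean log2 difference of -6.57 ± 0.5 (SE, adjusted p = 2.7e-15 by limma). A second PDK4 probe set had signals of 8.57 and 1.35 at days 21 and 42 with TGF-beta3, against 571 and 1125 without it. The third had 7.76 and 5.05 with TGF-beta3, against 278 and 503 without. All 3 PDK4 probe sets fell, the other 2 by bounds of -5.73 ± 0.59 and -4.63 ± 0.68 (SE, adjusted p = 8.6e-11 and 8.1e-07 by limma). These other 2 passed the filter on low signal only through the arrays without TGF-beta3.

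**Figure D2:**
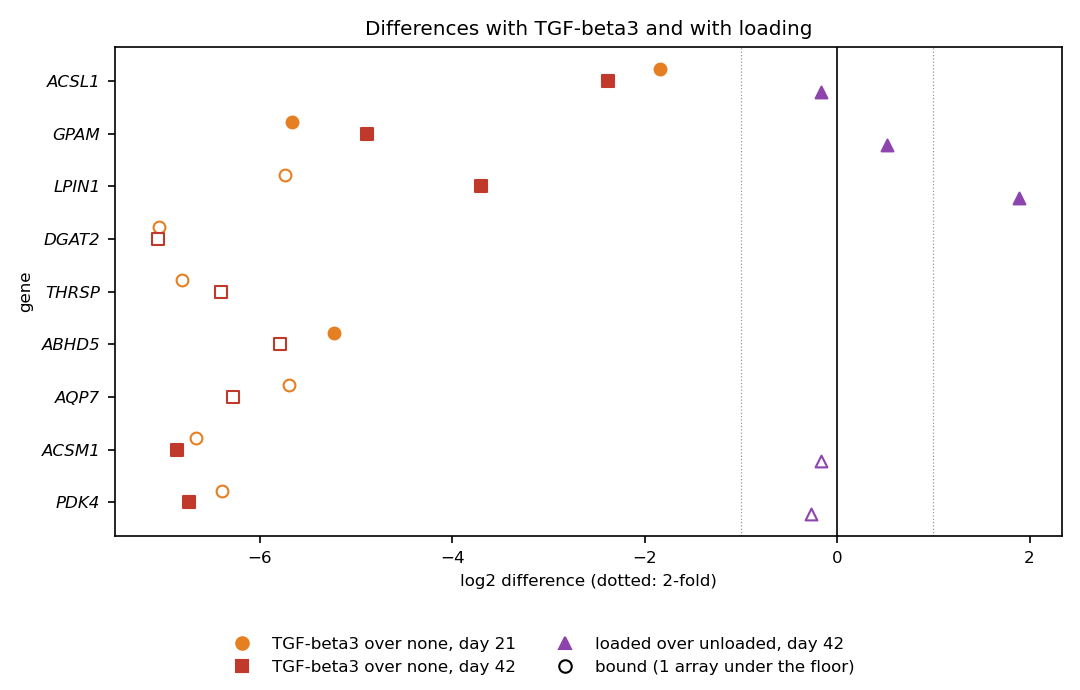
Log2 difference of each gene for TGF-beta3 over none at day 21 (circles) and day 42 (squares), and for the loaded over the unloaded array at day 42 with TGF-beta3 (triangles). Open symbols are bounds, dotted lines mark 2-fold, and genes under the floor on both arrays are not drawn. All TGF-beta3 points lie left of the 2-fold line. The loading point of LPIN1 lies right of it, at 1.89.

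Without TGF-beta3 the 9 genes were higher later in culture. Each was at least 2-fold higher at day 21 than at day 3, where 7.03% of 6759 genes were, and none was lower, against 4.72% of genes. At day 42 over day 3 the same held for 9 of the 9, against 11.3% of genes higher and 8.79% lower. The median log2 difference of the 9 genes was 4.90 at day 21 over day 3 and 5.38 at day 42 over day 3, against 0.03 over all genes in each. These comparisons use the same day 21 and day 42 arrays without TGF-beta3 as those of TGF-beta3, so high signals on them enter both.

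Among the enzymes that build triglyceride, ACSL1, already at a signal of 471 at day 3, was 2.76-fold higher at day 21 and 3.67-fold at day 42. GPAM was 20.8-fold and 17.1-fold higher, and LPIN1 17.6-fold and 10.6-fold. DGAT2, under the floor at day 3, was at least 133-fold higher on both days. For the genes of release and fuel choice, ABHD5 was 30-fold and 25.9-fold higher and PDK4 27.3-fold and 41.6-fold, with no bound. THRSP, AQP7 and ACSM1 were under the floor at day 3. The bounds for days 21 and 42 were at least 113-fold and 85-fold higher for THRSP, at least 52-fold and 77.6-fold for AQP7, and at least 102-fold and 131-fold for ACSM1.

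Between days 42 and 21 without TGF-beta3, none of the 9 genes differed 2-fold in either direction, where 3.83% of 6684 genes were higher and 5.49% lower. The log2 differences, all measured above the floor on both arrays, ran from -0.73 for LPIN1 to 0.61 for PDK4, with a median of 0.01. AQP7 was higher at day 42 by 0.58, ACSL1 by 0.41 and ACSM1 by 0.36, while THRSP differed by -0.40, GPAM by -0.28 and ABHD5 by -0.21. The highest array was day 42 for 5 of the genes and day 21 for the other 4. With 1 array a day these small differences have no error to be read against.

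**Figure D3:**
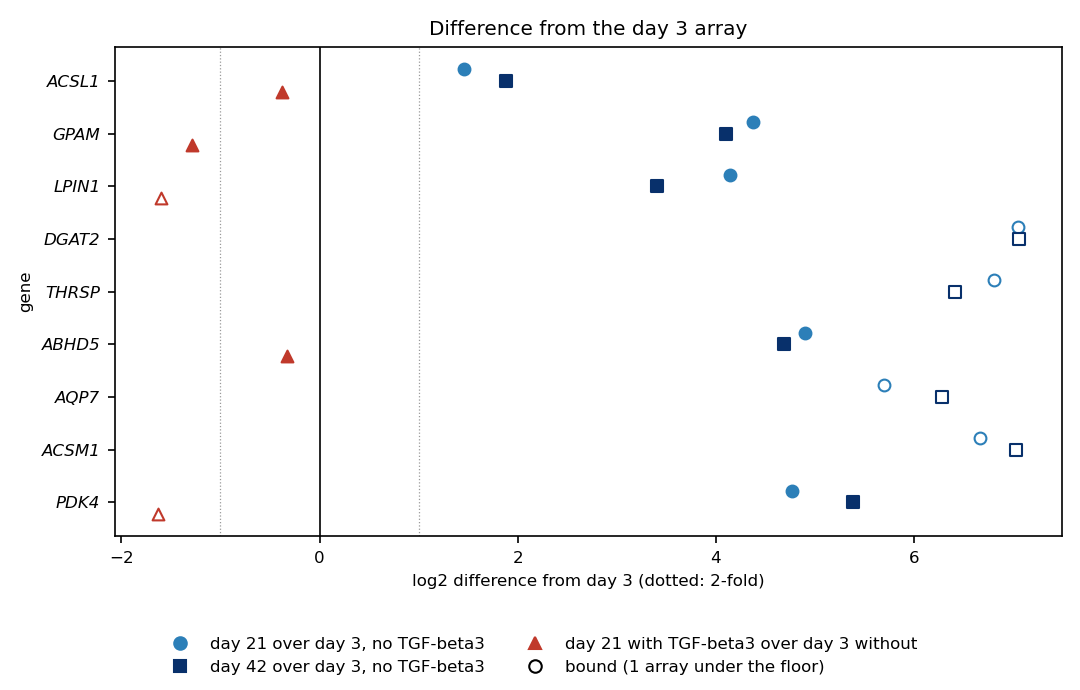
Log2 difference of each gene from the day 3 array without TGF-beta3, for day 21 without (circles), day 42 without (squares) and day 21 with TGF-beta3 (triangles). Open symbols are bounds, dotted lines mark 2-fold, and genes under the floor on both arrays are not drawn. Every point without TGF-beta3 lies right of the 2-fold line. The 5 points with TGF-beta3 lie between -1.63 and -0.33.

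The day 21 array with TGF-beta3 was also set against day 3, a comparison that differs in both time and growth factor. Of the 5 genes above the floor on either array, 3 were at least 2-fold lower and none was higher, where 12.1% of 6906 genes were lower and 14.3% higher. GPAM was 2.44-fold lower, LPIN1 at least 3.03-fold and PDK4 at least 3.09-fold. The PDK4 call rests on its brightest probe set. The second PDK4 probe set had 8.57 against 27 at day 3, a bound of at least 1.79-fold that does not reach 2-fold. The third was under the floor on both arrays. ACSL1 and ABHD5 were 1.3-fold and 1.26-fold lower, within the 2-fold limit. The lower calls were lost with the floor at the 60th percentile or at a signal of 100, where 0 of the genes passed. GPAM also lost its call with the floor value added (log2 -0.93), and PDK4 with the median of its probe sets (a bound of log2 -0.84).

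Over time with TGF-beta3, LPIN1 was past 2-fold both without and with loading. It was at least 2.48-fold higher at day 42 than at day 21 without loading, the only one of the 6 genes above the floor on either array to pass 2-fold, where 19.7% of 7474 genes were higher and 11.1% lower. With loading, at day 42 over day 21, LPIN1 was at least 9.19-fold higher and GPAM 2.02-fold, and these were 2 of 4 genes compared, where 15.4% of 7381 genes were higher and 7.36% lower. Both day 42 arrays with TGF-beta3 had brighter spikes than day 21, by log2 1.26 unloaded and 0.81 loaded. With the arrays scaled to their spikes, no gene was higher in the unloaded comparison and only LPIN1 in the loaded one. The GPAM difference, log2 1.02, was 0.75 after quantile normalization, 0.64 after median centring, 0.2 after spike scaling and 0.72 with the floor value added, so its 2-fold call was lost under each, and at the 60th percentile floor and a floor of 100 GPAM was under the floor on both arrays. LPIN1 kept its call in the loaded comparison under these settings except at a floor of 100 (a bound of log2 0.48).

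Dynamic loading for 21 days was compared on the 2 day 42 arrays with TGF-beta3. Among the 5 genes above the floor on either array, LPIN1 was at least 2-fold higher on the loaded array and none was lower, where 8.41% of 7703 genes were higher and 7.41% lower. The signal of LPIN1 was 139 loaded and 37.5 unloaded, a 3.71-fold difference or log2 1.89. This difference was 2.09 after quantile normalization, 1.83 after median centring and 2.34 after scaling to the spikes, but a bound of 0.48 with the floor at a signal of 100, where the 2-fold call was lost. The log2 difference of GPAM was 0.52 and that of ACSL1 -0.17, both within 2-fold, and the ACSL1 difference was 0.28 after scaling to the spikes. ACSM1 and PDK4 were under the floor on the loaded array and just above it on the unloaded one, and DGAT2, THRSP, AQP7 and ABHD5 were under it on both.

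The loaded array was also set against the culture without TGF-beta3. Each of the 9 genes was at least 2-fold lower on it than on the day 42 array without TGF-beta3, where 13.9% of 7474 genes were lower and 22.5% higher. ACSL1 was 5.84-fold lower, GPAM 20.7-fold and LPIN1 3.51-fold, all measured on both arrays. The other 6 were bounds, from at least 55.4-fold for ABHD5 to at least 133-fold for DGAT2.

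Enzymes that carry out the same steps did not all show the pattern. ACSL5, another long-chain acyl-CoA synthetase, fell with TGF-beta3 (mean log2 -2.99 ± 0.5, SE, adjusted p = 1e-05 by limma), with signals of 56.7 and 56.4 at days 21 and 42 with it, against 379 and 536 without. Its signal at day 3 without TGF-beta3 was 339. ACSL3, of the same family, had signals of 780 and 866 with TGF-beta3, against 636 and 463 without, and did not pass (log2 0.6 ± 0.35, SE, adjusted p = 0.28 by limma). GPAT3, which adds the same first fatty acid as GPAM in the endoplasmic reticulum, had 218 and 464 with TGF-beta3, against 363 and 433 without (log2 -0.32 ± 0.39, SE, adjusted p = 0.66 by limma). Signals of DGAT1, the other enzyme that closes the triglyceride, were 27.6 and 66.7 with TGF-beta3 and 109 with loading, against 9.47, 21.6 and 12.5 at days 3, 21 and 42 without. DGAT1 thus lay higher with TGF-beta3, by log2 0.35 at day 21 and by a bound of 2.14 at day 42. Its mean did not pass (log2 1.24 ± 0.63, SE, a bound, adjusted p = 0.2 by limma).

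Of the other pyruvate dehydrogenase kinases, PDK3 had signals of 79.3 and 106 at days 21 and 42 with TGF-beta3, against 151 and 159 without, and did not pass (log2 -0.76 ± 0.57, SE, adjusted p = 0.42 by limma). PDK2 was near the floor throughout, with 21.2 and 14.1 with TGF-beta3, against 21.4 and 27.7 without (log2 -0.44 ± 0.54, SE, a bound, adjusted p = 0.66 by limma). Whether the fall of a gene differed from that of its neighbour at the same step was not tested.

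**Figure D4:**
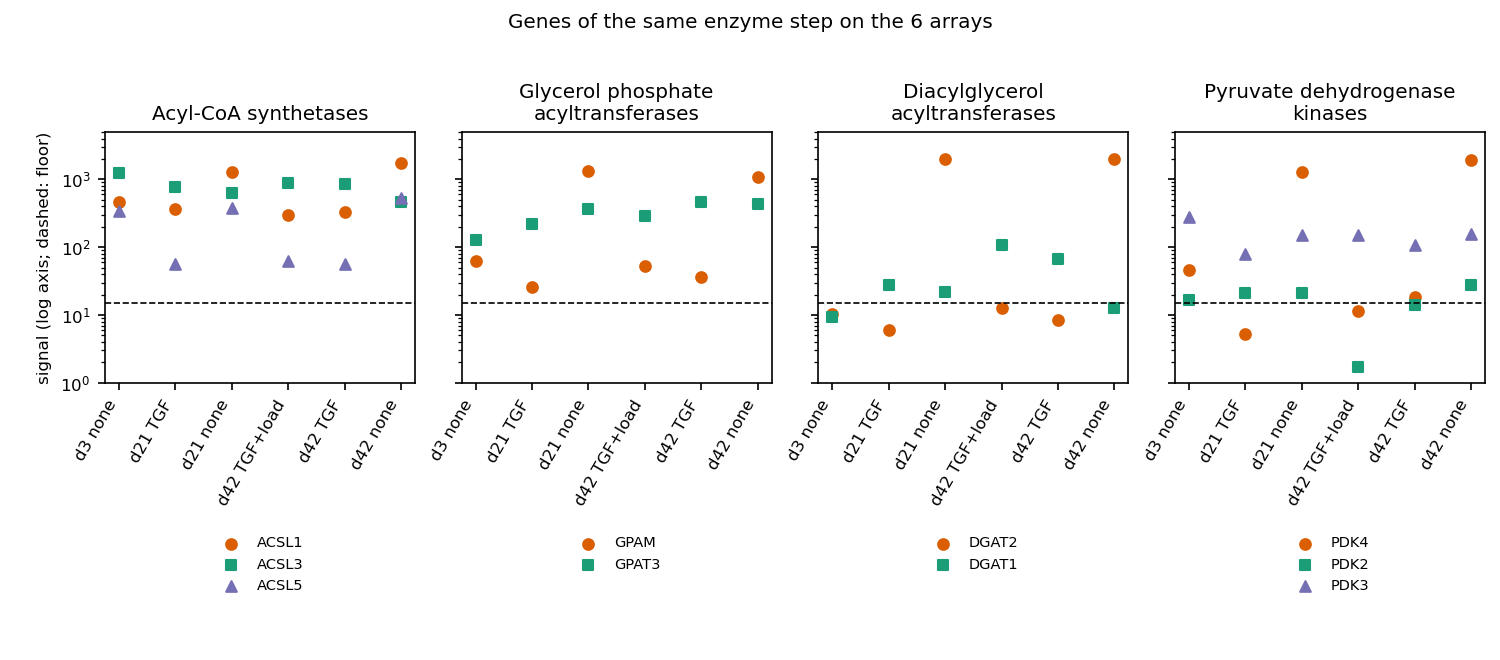
Signal (log axis, no units) of genes that act at the same step on the 6 arrays, 1 point per array, with the floor of 15.1 dashed. Levels of different genes in a panel come from different probe sets and are not comparable, so only each gene's course over the arrays can be read. ACSL1, GPAM, DGAT2, PDK4, ACSL5 and PDK2 are highest on days 21 and 42 without TGF-beta3. For PDK2 the margin at day 21 is narrow, at 21.4 without TGF-beta3 and 21.2 with it. The highest point is day 42 with TGF-beta3 for GPAT3, the loaded array for DGAT1 and day 3 for ACSL3 and PDK3.

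Other genes of fat metabolism were read from 7 lists, also chosen with earlier results of these data known. Beside the counts of each list stand the 7.7% of 6835 genes that fell and the 7.11% that rose. The median log2 difference of all genes tested was 0.13. Of 11 other triglyceride synthesis genes tested, 3 fell and 1 rose with TGF-beta3, with a median log2 difference of -0.32. Besides ACSL5, the acyltransferases AGPAT3 and AGPAT2, which add the second fatty acid, fell by mean log2 differences of -2.87 ± 0.72 and -2.29 ± 0.67 (SE, adjusted p = 0.0035 and 0.014 by limma). Both means are bounds, since AGPAT2 was under the floor on both arrays with TGF-beta3, and so passed the filter only through those without it, and AGPAT3 on the day 21 one. AGPAT4, of the same family, rose by 1.91 ± 0.64 (SE, a bound, adjusted p = 0.036 by limma). It was under the floor on both arrays without TGF-beta3, and so passed the filter only through those with it. This rise held under 5 of 14 alternatives to the fit and was weaker under 9. Of the dimmer AGPAT3 probe sets, 1 fell (mean log2 -1.83, adjusted p = 0.046 by limma) and the other did not pass (-0.42, adjusted p = 0.64 by limma). With an array left out the count that fell was 1 without day 21 and 0 without day 42 of the arrays without TGF-beta3, and 5 without day 42 with it.

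In the lipolysis and lipid droplet list 6 of 10 genes fell and none rose, with a median of -1.99. CIDEC, which fuses lipid droplets, had signals of 4.35 and 2.05 with TGF-beta3 at days 21 and 42, against 846 and 829 without (mean log2 -5.79 ± 0.58, SE, a bound, adjusted p = 3.6e-11 by limma). CIDEC thus passed the filter on low signal only through the arrays without TGF-beta3. LIPE, the hormone-sensitive lipase, had 4.77 and 34.9, against 340 and 455 (mean log2 -4.1 ± 0.63, SE, a bound, adjusted p = 1.8e-06 by limma), but its 3 dimmer probe sets did not pass. PLIN2, a droplet coat protein of many cell types, had 1139 and 3264 with TGF-beta3, against 1491 and 1850 without, and did not pass (log2 0.22, adjusted p = 0.76 by limma). Leaving out the day 21 or the day 42 array without TGF-beta3 reduced the count that fell to 2 or 1.

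The de novo fatty acid synthesis list was mixed, with 5 of 17 genes lower and 1 higher by the same test and a median of -0.63. ACSS2, which makes acetyl-CoA from acetate, had signals of 4.01 and 2.92 with TGF-beta3 at days 21 and 42, against 611 and 725 without (mean log2 -5.46 ± 0.61, SE, a bound, adjusted p = 9e-10 by limma). Only the arrays without TGF-beta3 brought ACSS2 past the filter on low signal. ELOVL6, which lengthens palmitate, fell by a mean log2 of 3.07, and SCD5, a desaturase, rose by 1.13 ± 0.34 (SE, adjusted p = 0.019 by limma). The rise of SCD5 held under 10 of 18 alternatives to the fit and was weaker under 8. FASN, the fatty acid synthase itself, had 91.6 and 207 with TGF-beta3, against 147 and 160 without, and did not pass (log2 -0.16, adjusted p = 0.89 by limma). SCD, the main desaturase of fat tissue, had 3085 and 2569, against 4627 and 5238, and did not pass either (log2 -0.81, adjusted p = 0.15 by limma). The count that fell was 2 or 1 without the day 21 or day 42 array without TGF-beta3, and 8 without the day 21 array with it.

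Of 21 genes of fatty acid oxidation, 10 fell and none rose, with a median of -1.22. ACADM, the medium-chain acyl-CoA dehydrogenase, had signals of 110 and 62.7 with TGF-beta3 at days 21 and 42, against 834 and 933 without (mean log2 -3.41 ± 0.42, SE, adjusted p = 1e-08 by limma). UCP2, a carrier of the mitochondrial inner membrane, had 8.02 and 7.56, against 236 and 225 (mean log2 -3.93 ± 0.71, SE, a bound, adjusted p = 4.6e-05 by limma). UCP2 too passed the filter on low signal only through the arrays without TGF-beta3. The count that fell was 4 without the day 21 array and 3 without the day 42 array without TGF-beta3.

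In the pyruvate dehydrogenase list 4 of 11 genes fell and none rose, with a median of -0.85. The 4 were subunits of the complex that PDK4 switches off and a pyruvate carrier: PDHX (mean log2 -1.67), PDHA1 (-1.34), PDHB (-1.13) and MPC2 (-1). These falls were small and none of the 4 passed after scaling to the spikes, without the variance trend, or without either array without TGF-beta3, and the other 3 probe sets of PDHA1 did not pass. After median centring, or without the day term, PDHX alone passed (adjusted p = 0.016 and 0.034 by limma).

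Among 12 fatty acid uptake and adipocyte identity genes, 7 fell and none rose, with a median of -1.55. CD36, a fatty acid transporter, had signals of 24.3 and 0.892 with TGF-beta3 at days 21 and 42, against 3784 and 4437 without (mean log2 -7.74 ± 0.41, SE, a bound, adjusted p = 9.8e-21 by limma). PPARG, the nuclear receptor that drives fat cell formation, had 17.9 and 16.5, against 676 and 771 (mean log2 -5.39 ± 0.58, SE, adjusted p = 3.8e-10 by limma). Of the uptake and identity genes, 3 fell without the day 21 array and 4 without the day 42 array without TGF-beta3. In the lipid-sensing regulator list 3 of 11 fell and none rose, with a median of -1.09. They were the coactivator PPARGC1A (mean log2 -3.09), the oxysterol receptor NR1H3 (-1.78) and the partner receptor RXRA (-1.58), and after median centring 1 of the 3, PPARGC1A, passed (adjusted p = 0.0002 by limma). None of the 3 passed without the day term or without either array without TGF-beta3. Without the day 21 array with TGF-beta3 1 regulator fell, and without the day 42 array with it 6 did. All 3 dimmer PPARGC1A probe sets fell too, and the other NR1H3 probe set did not pass (log2 0.33).

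**Figure D5:**
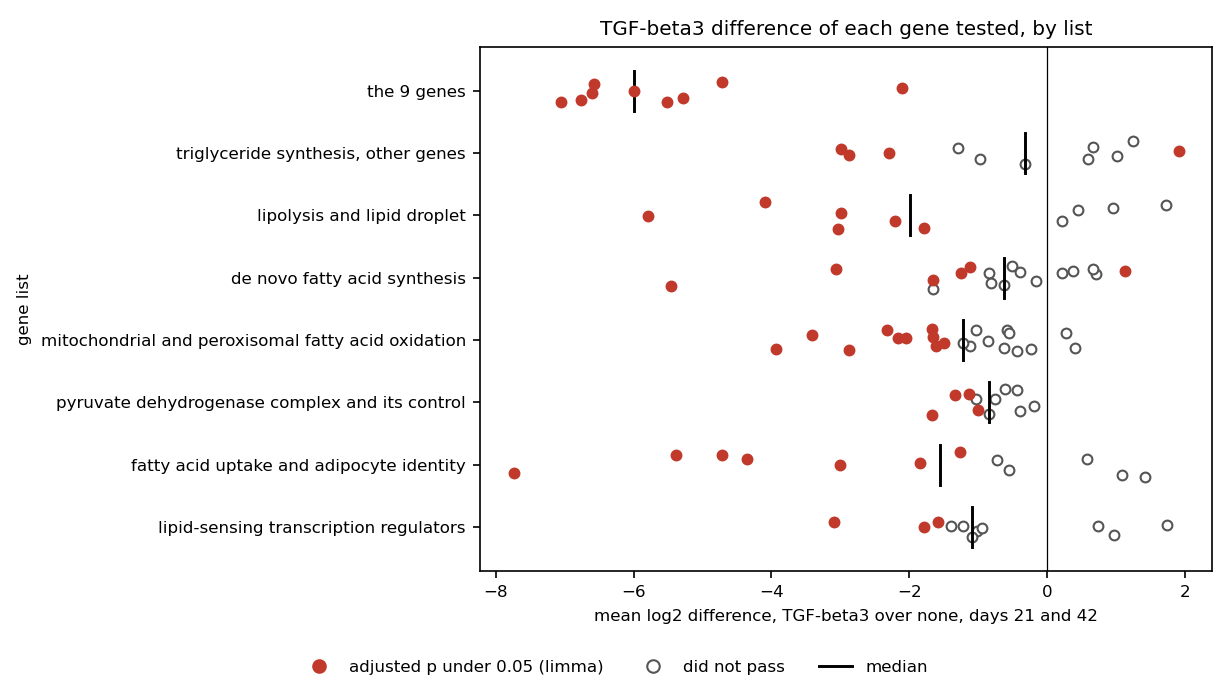
Mean log2 difference with TGF-beta3 over none, days 21 and 42, of each gene tested in the 9 genes and the 7 lists. Filled points passed limma at an adjusted p under 0.05, open points did not, and the bar is the median of the row. The median of the 9 genes is -5.99 and the medians of the other rows lie between -1.99 and -0.32.

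At day 21 over day 3 without TGF-beta3, 7.03% of all genes were at least 2-fold higher and 4.72% lower. In each list more genes were higher than lower. The higher genes were 10 of 17 in de novo synthesis, 8 of 20 in oxidation and 6 of 13 in uptake and identity. They were 5 of 10 in the droplet list, 5 of 12 in triglyceride synthesis and 3 of 10 among regulators. The pyruvate dehydrogenase list had 1 of 11 higher and none lower, near the shares of all genes. In the droplet and the uptake lists 1 gene each was lower. On the loaded over the unloaded array, no list had more than 2 genes higher or 1 lower. Of all genes, 8.41% were higher and 7.41% lower there.

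For each of the 9 genes, the 3 genes with the most similar course over the 6 arrays were found by Pearson's r of log2 signals, among 1997 genes that ranged over at least log2 2. These r values describe 6 arrays, and the low arrays share the floor, which alone brings genes above it on the same 2 arrays close together. DGAT2 was most like CIDEC (r = 0.99999), ACSS2 and ADIPOQ, and THRSP most like ADIPOQ (0.99995), CEACAM1 and CIDEC. AQP7 was most like VSIG4 (0.99998), SLC2A4 and AGPAT2, and ACSM1 most like ACSS2 (0.99981), VSIG4 and CIDEC. PDK4 was closest to SLC1A3 (0.99935), ELOVL6 and KLB, and ACSL1 to SLC1A3 (0.99556), DBT and CD53. ABHD5 was closest to COL4A1 (0.99789), ENPEP and SGPL1, GPAM to PPP1R1B (0.99798), ENPEP and MBNL3, and LPIN1 to PCCA (0.98125), PAQR3 and PLTP. Among the 9 genes themselves the 36 pairs had a median r of 0.982, from 0.813 for LPIN1 with ACSL1 to 0.9995 for AQP7 with ACSM1.

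Markers of other cell types moved with TGF-beta3 as well, and their part in the results was not tested. Of all genes tested, 7.7% fell and 7.11% rose. Of 9 adipocyte markers 8 were measured, with a summed signal of 473 and 928 at days 21 and 42 with TGF-beta3 and 779 with loading, against 5073, 13592 and 16264 at days 3, 21 and 42 without. All 6 adipocyte markers tested fell, and all 6 are also in the lists above. Of these, ADIPOQ and CIDEC passed the filter on low signal only through the arrays without TGF-beta3. CEBPA and LEP were not tested. CEBPA was above the floor only on the loaded array (30.8). LEP was above it only at day 42 without TGF-beta3 (17.8) and on the loaded array (15.7). ADIPOQ, the hormone adiponectin, had signals of 0.671 and 0.39 with TGF-beta3 at days 21 and 42, against 1.38, 332 and 290 at days 3, 21 and 42 without. FABP4 was already at 2800 and LPL at 1854 on the day 3 array, where ADIPOQ, CIDEC, CEBPA and LEP were under the floor.

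The macrophage and blood cell markers (9 of 10 measured) summed to 65.7 and 137 at days 21 and 42 with TGF-beta3 and 105 with loading, against 284, 495 and 615 at days 3, 21 and 42 without. AIF1, CD53 and CD68 fell among 8 tested, none rose, and ITGAM was under the floor on all 6 arrays. AIF1, CD53 and CD68 each passed the filter on low signal only through the arrays without TGF-beta3. Chondrocyte markers ran the other way, at 35302 and 61092 with TGF-beta3 and 55167 with loading, against 8205, 10582 and 9476 without, and 8 of 8 tested rose. Of these, CHAD passed the filter on low signal only through the arrays with TGF-beta3. Smooth muscle markers summed to 5569 and 1481 with TGF-beta3 and 2097 with loading, against 1182, 1580 and 1021 without, with 4 of 5 tested higher and 1 lower by limma. Among those higher, DES passed the filter only through the arrays with TGF-beta3. The 6 endothelial markers summed to 428 and 247 with TGF-beta3 and 279 with loading, against 110, 128 and 67.9 without. ERG rose, 1 of 2 tested, and had signals of 388 and 210 at days 21 and 42 with TGF-beta3, against 80.2 and 30.3 without, while CDH5, VWF and KDR were under the floor on all arrays. Among 8 marrow stromal markers, NT5E, ENG, CD44 and ALCAM were above the floor on all 6 arrays and LEPR on none. Their sum was 1623 and 1798 with TGF-beta3 and 2332 with loading, against 3413, 2088 and 1435 without, and CXCL12, VCAM1 and CD44 fell while NT5E rose. CXCL12 and VCAM1 passed the filter only through the arrays without TGF-beta3.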

How the data were processed

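Total RNA of 6 agarose cultures, 1 per condition, was amplified with ribo-SPIA, labelled with biotin and hybridised to bovine Affymetrix arrays, per the labels' protocols. The submitters' processing notes name MAS5, and the table deposited by the authors holds 1 linear intensity for each probe set and array. Version and settings of MAS5 are not stated. Once the outer 2% of values on both sides were trimmed, each array had a mean of 150, and this scaling was kept. Of 24128 probe sets, 112 controls were left out. Symbols came from the platform annotation: 13292 probe sets had 1, 86 had several and 10638 had none. No genome build is named, so no position is given.

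Log2 was taken after the floor. Pairs of single arrays were compared by size only, at 2-fold, if above the floor on at least 1. TGF-beta3 over days 21 and 42 was tested with limma 3.58.1 in R 4.3.3 (day term, variance trend, prior degrees of freedom 49.8, above the floor on at least 2 of 4 arrays, Benjamini-Hochberg adjustment). The step was also run on simulated data with the same spread for every probe set and no floor. That run cannot show how well the p-values hold for floored signals. "Rose" and "fell" refer to this test. No label says whether the cultures had separate donors, so the p-values may measure technical spread. The genes, the 7 lists and the 6 marker lists were chosen with earlier results of these data known. The text names the 9 genes, the 2 highest and 2 lowest genes past the test in each list (all, where 4 or fewer passed), and the 3 genes most like each of the 9, leaving out placeholder symbols; genes of the same enzyme steps, PLIN2, FASN, SCD and the markers given singly were named after their values were seen. Tables were handled with pandas 2.3.3 and numpy 2.4.6 in Python 3.11.15, and figures drawn with matplotlib 3.10.9.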

Additional observations from a re-analysis of the deposited data

Results flagged for a closer look

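FABP3, which carries fatty acids within cells, was the gene of the lists set out above that differed at least 2-fold with TGF-beta3 on both days, in opposite directions. Other list genes, such as PLIN2 and FASN, also had opposite signs on the 2 days, but with a smaller difference on at least 1 of them. It was higher with TGF-beta3 by log2 2.32 at day 21 (signal 881, against 177 without) and lower by log2 -1.16 at day 42 (signal 185, against 415 without). The loaded day 42 array had a signal of 543. The difference between the days was not tested, and with 1 array per condition it has no replicate error. Its mean over the days did not pass limma (log2 0.58, adjusted p = 0.46).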

How the results depend on the processing

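Replicate numbers pair no samples, since each condition had 1 array. The day term of the limma fit pairs the arrays by day, and a fit without it was among the alternatives. Of 18 alternatives to the limma fit of the 9 genes, 17 left the count that fell within 1.5 times of 9, and with no filter on low signal it was 0 (9 at an unadjusted p under 0.05, while 0 of all 24016 probe sets passed there). With 1 array left out it was 6 to 9, as DGAT2, THRSP and AQP7 then lacked enough arrays above the floor to be tested without either array without TGF-beta3, and the others tested still fell. Median centring moved the median log2 difference of all genes to -0.09 and scaling to the spikes to -0.65, against 0.13. The mean log2 difference of DGAT2 lay between -8.13 (floor at the 25th percentile) and -4.33 (floor at 100), and that of ACSL1 between -2.95 (spike scaling) and -1.9 (without the day 42 array without TGF-beta3).

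The counts of 2-fold members with TGF-beta3 over none were 9 under all 10 alternatives on both days and with loading, and at day 21 over day 3 without it 8 to 9. Other counts of the 9 genes moved. Loaded over unloaded, 1 was lower when the floor was the 25th percentile, and 0 higher at a floor of 100. At day 42 over day 21 with TGF-beta3, 3 were higher at the 25th percentile and 0 at the 60th, at 100, at 3-fold and with spike scaling, while 2 were lower with spike scaling and 1 at the 25th percentile, with the floor value added and at 1.5-fold. Loaded over day 21, 4 were higher at the 25th percentile, 0 at 100, and 1 with quantile, median or spike scaling, the 60th percentile, the floor added or 3-fold, while 2 were lower with spike scaling and 1 at the 25th percentile and at 1.5-fold. At 1.5-fold 1 was higher and 1 lower at day 42 over day 21 without TGF-beta3. At day 21 with TGF-beta3 over day 3, 0 were lower at the 60th percentile and at 100. The causes were not tested.

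Counts of list genes that fell depended on the fit. Without the day term they were 3 for droplet, 2 for de novo synthesis, 6 for oxidation, 1 for pyruvate dehydrogenase, 4 for uptake and 0 for regulators. After median centring they were 1 for pyruvate dehydrogenase and 1 for regulators. Without either array without TGF-beta3 they were 0 to 1 for triglyceride synthesis, 1 to 2 for droplet and for de novo synthesis, 3 to 4 for oxidation and for uptake, and 0 for the other 2 lists. The planned search for motifs in promoters was not run.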
